A study of Mus musculus with 16 samples.

Results

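The pituitary hormone and lineage genes are 9 of the 22911 genes with a RefSeq symbol on the array: the hormone genes Gh, Prl, Tshb, Lhb, Fshb, Cga and Pomc, and the lineage genes Pou1f1 and Tbx19. The list was chosen by measured values of these same arrays, in which Gh had been found high in 3 animals, so levels by animal are given as a description, and nothing rests on a test of them. Brains of C57BL/6 mice at postnatal day 1 were compared between 4 groups of 4 animals, with 1 one-colour array per animal. The heated group came from freeze-dried sperm that had been warmed for 1 h at 95 °C, the irradiated group from freeze-dried sperm exposed to X-rays at a dose of 5 Gy, the freeze-dried group from freeze-dried sperm with no further treatment, and the fresh group from fresh sperm. Freeze-drying is thus shared by the heated, irradiated and freeze-dried groups. The labels call the tissue brain and do not say how the brain was dissected or whether the pituitary came with it.

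The anterior pituitary lies under the hypothalamus and makes its hormones in separate cell types. Somatotrophs make growth hormone (Gh), lactotrophs prolactin (Prl), thyrotrophs thyrotropin (Tshb paired with Cga), gonadotrophs luteinizing and follicle-stimulating hormone (Lhb or Fshb paired with Cga), and corticotrophs the precursor of corticotropin (Pomc). The POU-domain factor Pou1f1 is required for the somatotroph, lactotroph and thyrotroph lineages, and the T-box factor Tbx19 for Pomc-producing cells. Pomc is also made by neurons of the hypothalamic arcuate nucleus, and Tshb and Cga also by the pars tuberalis, the sheet of pituitary tissue on the hypothalamic surface.

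The promoters of 3 genes are shown as RefSeq gives them on GRCm38.p6, each as the 250 bases before the start used in the RefSeq table, read 5′ to 3′ on the strand of the gene. They are the listed genes in which a searched motif was found. Capitals mark matches on either strand to TATNCAT, a form of the site of Pou1f1 (Prl and Pou1f1), or to CAAGGTCA, a site of Nr5a1, the steroidogenic factor of gonadotrophs (Lhb). The promoters are those of Prl at chr13:27057320-27057569, plus strand, of Pou1f1 at chr16:65520262-65520511, plus strand, and of Lhb at chr7:45420696-45420945, plus strand, which lies inside the annotated span of Lhb. A later start of Pou1f1, at the end of chr16:65523059-65523308, has an entry of its own with none of the searched motifs.
Prl: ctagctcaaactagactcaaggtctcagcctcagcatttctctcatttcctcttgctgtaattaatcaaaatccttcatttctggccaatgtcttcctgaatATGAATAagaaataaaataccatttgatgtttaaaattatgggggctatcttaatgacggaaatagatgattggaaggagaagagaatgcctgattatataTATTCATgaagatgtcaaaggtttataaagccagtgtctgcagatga
Pou1f1: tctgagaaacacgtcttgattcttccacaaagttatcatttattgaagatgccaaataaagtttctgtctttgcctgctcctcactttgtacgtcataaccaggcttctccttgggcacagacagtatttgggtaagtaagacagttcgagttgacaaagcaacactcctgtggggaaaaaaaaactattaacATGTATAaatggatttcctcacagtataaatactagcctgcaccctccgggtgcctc
Lhb: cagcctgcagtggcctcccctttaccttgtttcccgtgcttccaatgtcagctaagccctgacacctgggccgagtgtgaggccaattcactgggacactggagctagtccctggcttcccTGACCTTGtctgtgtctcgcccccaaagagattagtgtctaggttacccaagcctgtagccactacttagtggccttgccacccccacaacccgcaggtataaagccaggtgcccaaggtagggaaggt

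The Prl promoter held TATNCAT at 148 to 142 and at 47 to 41 bases before the start, the Pou1f1 promoter at 57 to 51 bases before it. This motif occurred in 7.9% of 32851 mouse promoters of the same length. CAAGGTCA, found in the Lhb promoter at 129 to 122 bases before the start, occurred in 1.3% of them. TCACACC, a form of the Tbx19 site, occurred in 3.3% of all promoters and TAATCC, the Pitx site, in 6.3%. Neither was in the window of any of the 8 listed genes with an entry, and Gh was not among those entries. The motifs overlap in no window shown, and a match is a string of letters and not a measured site.

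Every gene of the list had 1 probe with 1 spot per array, and no annotated gene overlaps any of them. Levels are log2 of the processed signal minus the 75th percentile of the array, and a spot counts as measured when the extraction software marked it well above background. The lowest such signal on an array lay between -6.30 and -5.28 on this scale. Levels under it have no order and are given only to show that they lie there. A difference between brains in a bulk RNA level cannot be told apart as fewer cells of a type or less RNA per cell.

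Growth hormone separated 3 animals from the other 13, and each of the 3 came from a different group. Gh (chr11:106300261-106303703 on GRCm38.p6, the hormone of somatotrophs that drives body growth) had processed signals of 5512.8, 6.0, 6.1 and 4.1 in heated 1 to 4, 5.4, 4.2, 4.6 and 4.3 in irradiated 1 to 4, 4837.6, 5.6, 4.5 and 4.4 in freeze-dried 1 to 4, and 6.6, 19.7, 5262.5 and 5.4 in fresh 1 to 4. It was well above background in heated 1, freeze-dried 1 and fresh 3 alone, at log2 levels of 2.17, 1.81 and 2.34. These levels were 7.44, 7.85 and 7.76 above the lowest measurable signal of their own arrays. No irradiated animal had a measurable Gh signal. Over the 16 arrays the Gh values spanned 10.63 log2 units, and 3 of the 56605 probes had a wider range. The low end of that span lies below background, so its size is not measured. Its rank follows from the choice of the list, which was made with Gh known to be high.

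The other pituitary hormones of the Pou1f1 lineages were measurable in the same 3 animals and in no others. Prl (chr13:27057570-27065204), which drives milk production, was at levels of -4.74 in heated 1, -5.39 in freeze-dried 1 and -3.99 in fresh 3. Those values stood 0.54, 0.65 and 1.44 above the lowest measurable signal of each array, so Prl was measured near its limit. Tshb (chr3:102777398-102789082), the thyrotropin subunit that sets which receptor the hormone binds, was at -2.05 in heated 1, -1.41 in freeze-dried 1 and -2.12 in fresh 3. The animal with the highest level thus differed by hormone: fresh 3 for Gh and Prl, freeze-dried 1 for Tshb.

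**Figure D1:**
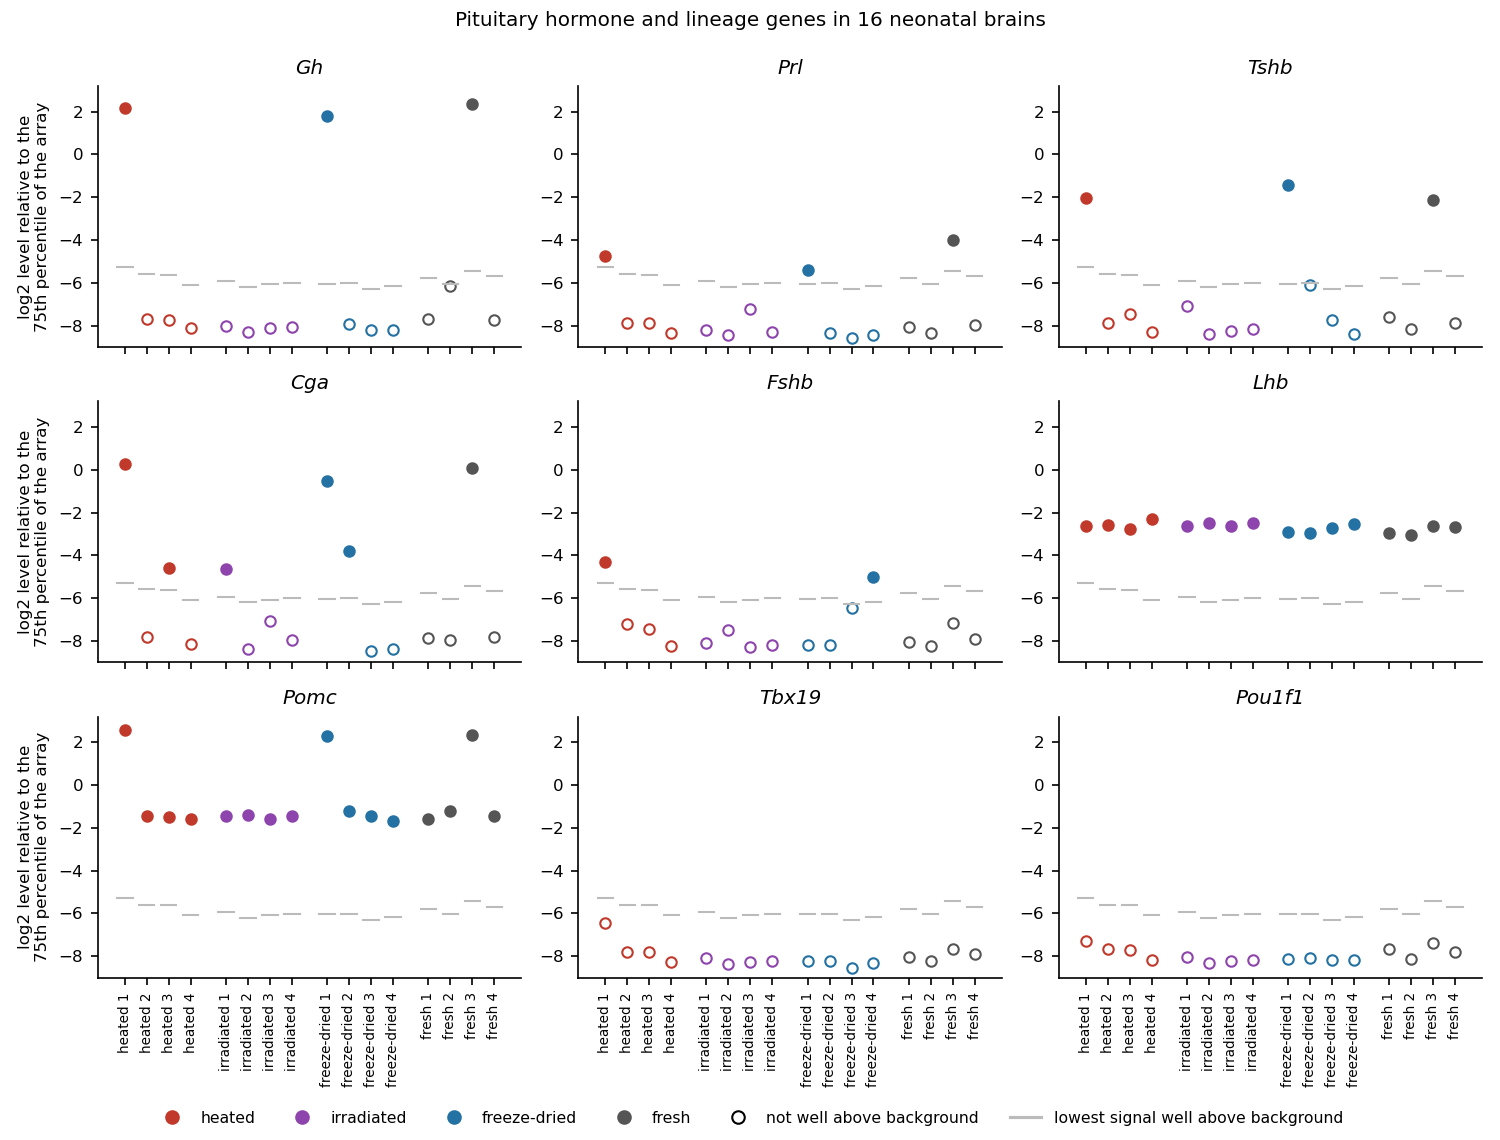
Log2 level of each of the 9 genes in each animal, relative to the 75th percentile of its array, with heated, irradiated, freeze-dried and fresh animals side by side. Filled points were well above background, open points were not, and the grey line is the lowest measurable level of that array; heated 1, freeze-dried 1 and fresh 3 stand high for Gh, Prl, Tshb, Cga and Pomc, while Lhb is level across all 16.

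The subunit that the glycoprotein hormones share reached 3 more animals. Cga (chr4:34893779-34907374), which pairs with Tshb, Lhb and Fshb, was at 0.27 in heated 1, -0.54 in freeze-dried 1 and 0.09 in fresh 3. It was measurable at lower levels in heated 3 (-4.59), irradiated 1 (-4.65) and freeze-dried 2 (-3.81). In those 3 animals Gh, Prl and Tshb were not well above background. The remaining 10 animals had Cga below the measurable level, between -8.49 and -7.08.

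The gonadotropin subunits did not follow Gh. Lhb (chr7:45417608-45421855), the subunit particular to luteinizing hormone, was well above background on all 16 arrays. It lay at -2.62, -2.59, -2.75 and -2.29 in heated 1 to 4, -2.64, -2.48, -2.64 and -2.50 in irradiated 1 to 4, -2.89, -2.94, -2.70 and -2.54 in freeze-dried 1 to 4, and -2.97, -3.06, -2.65 and -2.68 in fresh 1 to 4. Its range of 0.77 was exceeded by 34157 of the 56605 probes, and the animals high in Gh were not its highest. Fshb (chr2:107055986-107059651), the subunit particular to follicle-stimulating hormone, was measurable in heated 1 (-4.29) and freeze-dried 4 (-5.02) and in no irradiated or fresh animal. Freeze-dried 4 had no measurable Gh, Prl, Tshb or Cga.

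Pomc had a level in every brain and a far higher level in the 3 animals with Gh. Pomc (chr12:3954945-3960643), the precursor of corticotropin and the melanocortins, was at 2.55, -1.47, -1.49 and -1.59 in heated 1 to 4, -1.44, -1.42, -1.59 and -1.43 in irradiated 1 to 4, 2.28, -1.20, -1.44 and -1.66 in freeze-dried 1 to 4, and -1.59, -1.19, 2.36 and -1.45 in fresh 1 to 4. The high animal lay above the next highest of its own group by 4.02 log2 units in the heated, 3.48 in the freeze-dried and 3.55 in the fresh group. The 4 irradiated animals lay between -1.59 and -1.42, with none high. In the authors' deposited table, which holds log2 values of 31313 probes with column medians of 9.335 to 9.348 and unstated processing, Pomc was at 12.53 in heated 1, 12.53 in freeze-dried 1 and 12.36 in fresh 3. That table put the other 13 animals between 8.59 in irradiated 3 and 9.33 in freeze-dried 2.

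The lineage factors were not measurable in any animal, including the 3 with high hormone RNA. Pou1f1 (chr16:65520512-65535018) had processed signals of at most 7.7 and Tbx19 (chr1:165137834-165160773) of at most 13.9, and neither was well above background on any of the 16 arrays. Hesx1, a transcriptional repressor that acts in early pituitary development, was not well above background on any array either. No fold or order is given for these 3 genes.

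The patterns of the genes over the 16 arrays were compared by the cosine of their levels after the median of each gene was subtracted, where 1 means the same shape. Against Gh this was 0.995 for Pomc, 0.968 for Tshb, 0.964 for Prl, 0.902 for Cga, 0.46 for Fshb and -0.218 for Lhb. The arrays are shared by all genes, and 3 of them carry most of each value, so these numbers describe shape and have no p. Among 16903 other genes measurable on at least 2 arrays the median was 0.029, and 8 reached 0.8. Pitx1, a homeodomain factor of all pituitary lineages, was the closest to Gh (0.873) and also ranked first for Prl, Tshb, Cga and Pomc.

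Pitx1 was well above background in every animal. Its levels were -2.50, -3.50, -3.46 and -3.46 in heated 1 to 4, -3.35, -3.40, -2.83 and -3.52 in irradiated 1 to 4, -2.19, -2.73, -3.69 and -3.56 in freeze-dried 1 to 4, and -3.60, -3.23, -2.29 and -3.31 in fresh 1 to 4. The 3 highest were heated 1, freeze-dried 1 and fresh 3, followed by freeze-dried 2, in which Cga but not Gh was measurable. The next genes after Pitx1 were A330093E20Rik (0.866), Fam24b (0.851), 1810062G17Rik (0.833), Mog, a myelin protein (0.83), Olfr770 (0.822), Sytl4, a Rab-binding protein of secretory granules (0.82), Tbc1d2 (0.813), the growth factor Igf2 (0.776) and the actin-binding Tmsb4x (0.767). A330093E20Rik and Olfr770 were each measurable on 2 arrays only. Igf2 moved little, with a lowest level of 1.99 and a highest of 2.31. For Lhb the closest were Gatm (0.888), Rcor3 (0.888) and Cstad (0.885), and for Fshb Scn10a (0.857), 4930525G20Rik (0.839) and Gm31437 (0.832).

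**Figure D2:**
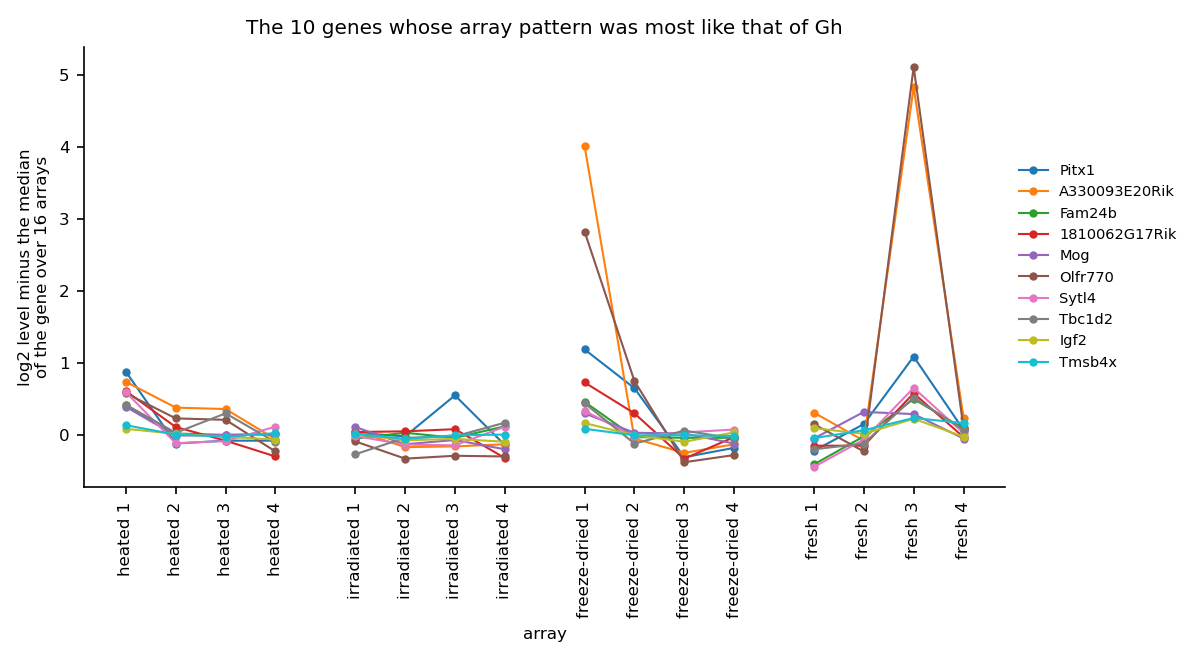
Log2 level, minus the median of each gene over 16 arrays, of the 10 genes whose pattern was most like that of Gh, by animal in the order heated, irradiated, freeze-dried, fresh. Pitx1 is highest in heated 1, freeze-dried 1 and fresh 3; A330093E20Rik and Olfr770 rise far in freeze-dried 1 and fresh 3, and the other genes lie within 1 log2 unit of their own median.

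Of 20 further pituitary transcription factors, 17 or 18 were well above background on each array. Lhx3, a LIM-homeodomain factor of the pituitary pouch that is also made in the hindbrain and spinal cord, was highest in heated 1 (-1.64), freeze-dried 1 (-1.62) and fresh 3 (-1.39). It was lowest in heated 4 (-5.48), fresh 2 (-4.49) and heated 2 (-3.39), which were also low in the hindbrain list given below. Neurod4, a helix-loop-helix factor, was measurable in freeze-dried 2 alone (-5.81). Of 10 pituitary receptors, Ghrhr, the receptor through which the hypothalamus drives growth hormone release, was measurable in fresh 3 alone (-5.23). Gnrhr and Avpr1b, the receptors of gonadotrophs and corticotrophs, were measurable in no animal, and Ghsr, the ghrelin receptor, in 5.

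**Figure D3:**
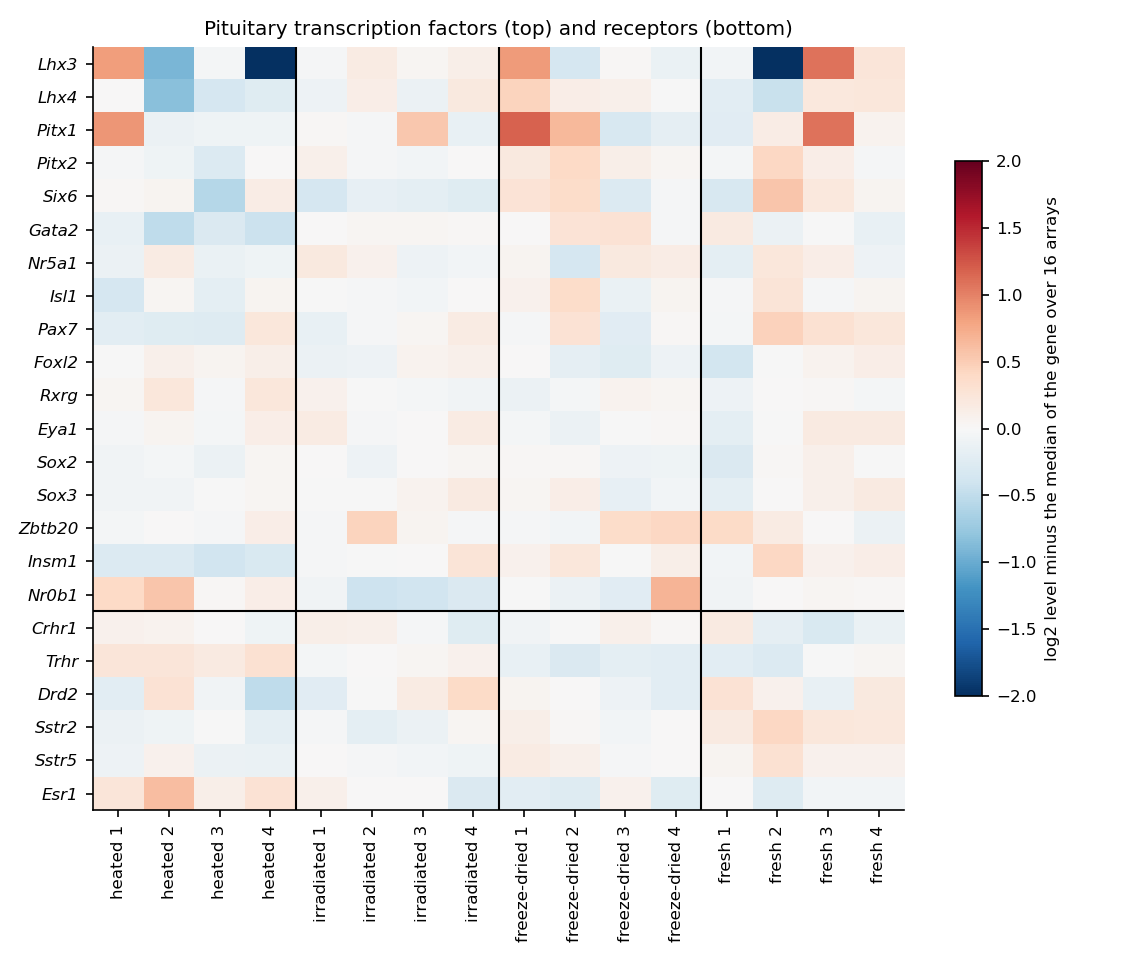
Log2 level of pituitary transcription factors and receptors measurable on more than 8 of the 16 arrays, minus the median of each gene, with the heated, irradiated, freeze-dried and fresh animals in columns. Lhx3 and Pitx1 are high in heated 1, freeze-dried 1 and fresh 3, and Lhx3 is low in heated 4, fresh 2 and heated 2; values beyond the colour scale take its end colour.

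The group comparisons ask whether treatment of the sperm was followed by a difference in the brain of the offspring. They were fitted with limma over all 56605 probes, with Benjamini-Hochberg adjustment over all probes and a threshold of 0.05. None of the 9 genes passed in any of the 3 comparisons reported. Heated against freeze-dried animals gave 0 of 9 where 1.41% of all probes passed. An unadjusted p under 0.05 was held by 15669 of the 56605 probes and by 2 of the 9, Tbx19 and Pou1f1, both below background. Irradiated against freeze-dried animals gave 0 of 9 where 0% of all probes passed (2759 probes at an unadjusted p under 0.05, and 0 of the 9). Freeze-dried against fresh animals gave 0 of 9 where 0.00177% of all probes passed (9223 probes at an unadjusted p under 0.05, and Pou1f1 alone of the 9). That percentage is 1 probe, for Rreb1, which lies outside the list and was named after its value was seen (log2 difference 1.35, limma adjusted p = 0.00663).

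For Gh the spread within these groups was far larger than the differences between their means. Gh averaged -5.34 ± 5.01 in heated, -5.64 ± 4.97 in freeze-dried and -4.81 ± 4.82 in fresh animals (SD, n = 4 each), where 1 animal of each group was measurable and the means take the others at their values below background. The fitted difference was 0.29 (SE 2.83) for heated minus freeze-dried (limma adjusted p = 0.96) and -0.82 (SE 2.83) for freeze-dried minus fresh (limma adjusted p = 0.923). No difference is given between the irradiated and freeze-dried groups for Gh, Prl, Tshb and Fshb, since no irradiated animal and only 1 freeze-dried animal was measurable for each.

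Pomc, measurable everywhere, averaged -0.50 ± 2.03 in heated, -1.47 ± 0.08 in irradiated, -0.50 ± 1.87 in freeze-dried and -0.47 ± 1.89 in fresh animals (SD, n = 4 each). Its difference was 0.006 (SE 1.11) for heated minus freeze-dried, -0.97 (SE 1.11) for irradiated minus freeze-dried and -0.03 (SE 1.11) for freeze-dried minus fresh, with limma adjusted p of 0.998, 0.978 and 0.993. Lhb had the smallest errors. It averaged -2.56 ± 0.19 in heated, -2.57 ± 0.09 in irradiated, -2.77 ± 0.18 in freeze-dried and -2.84 ± 0.21 in fresh animals (SD, n = 4 each). Its difference was 0.21 (SE 0.12, limma adjusted p = 0.287) for heated minus freeze-dried, 0.20 (SE 0.12, limma adjusted p = 0.938) for irradiated minus freeze-dried and 0.07 (SE 0.12, limma adjusted p = 0.826) for freeze-dried minus fresh. The differences of Cga were 0.23, -1.72 and 0.58 in the same order of comparisons, each with an SE of 2.31.

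**Figure D4:**
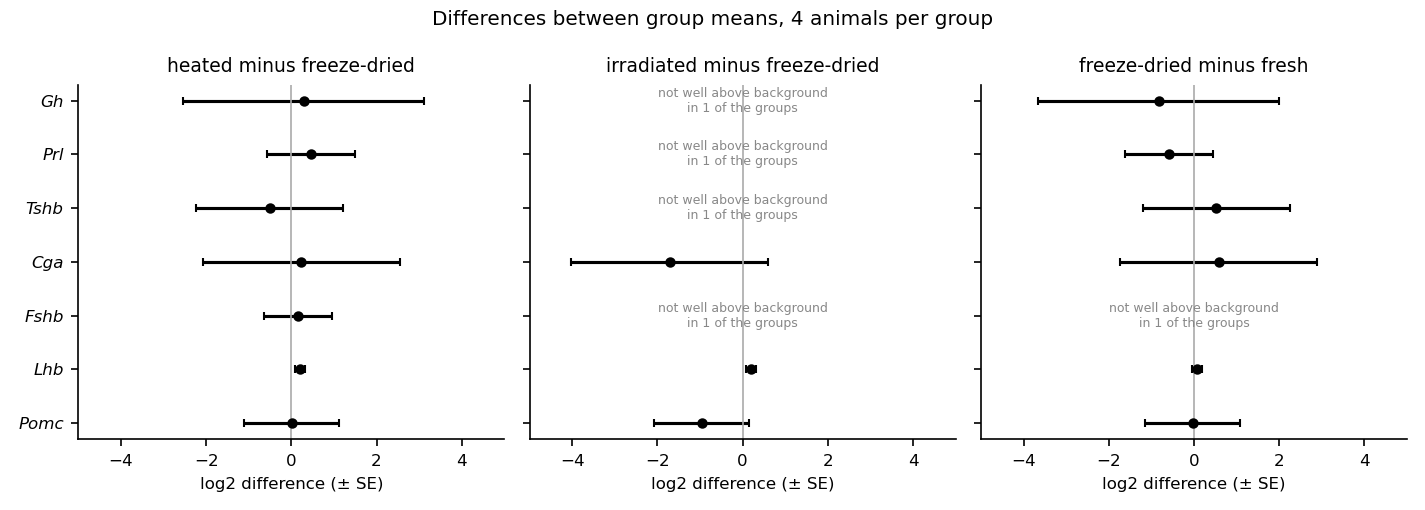
Fitted log2 difference and its standard error for 7 hormone genes in 3 comparisons, each between 4 and 4 animals. The error bars of Gh, Prl, Tshb, Cga, Fshb and Pomc span 0 in every comparison drawn, and no gene passed the threshold; a gene with no measurable animal in a group has no point.

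The arrays lay on 2 slides. Slide 1 held irradiated 1 and 2, all freeze-dried and fresh 1 and 2 animals, and slide 2 held all heated, irradiated 3 and 4 and fresh 3 and 4 animals. The animals high in Gh were on both, heated 1 and fresh 3 on slide 2 and freeze-dried 1 on slide 1. Within slide 1, freeze-dried minus fresh was 0.89 for Pomc, and irradiated minus freeze-dried was -0.93 for Pomc and -1.22 for Cga. Neither Gh nor Cga was measurable in the fresh animals of slide 1. No slide held both heated and freeze-dried animals, so slide and group cannot be told apart in that comparison without the other groups.

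Other genes of the pituitary axis are set beside the 1.41% of all 56605 probes that passed in heated against freeze-dried animals. In lists this short, 1 gene passing is not read as a result about the list. Of the 20 transcription factors, 1 fell and 0 rose in heated against freeze-dried animals, with a median difference of -0.157 where all probes had 0.105. That gene was Gata2, a zinc-finger factor of thyrotrophs and gonadotrophs that brain neurons also make, at -1.50, -1.86, -1.63 and -1.78 in heated 1 to 4 against -1.33, -1.07, -1.05 and -1.37 in freeze-dried 1 to 4 (difference -0.49, limma adjusted p = 0.0397). Of the 10 receptors 1 rose, Trhr, the thyrotropin-releasing hormone receptor, at -0.95, -0.95, -1.02 and -0.89 in heated 1 to 4 against -1.35, -1.49, -1.39 and -1.41 in freeze-dried 1 to 4 (difference 0.46, limma adjusted p = 0.0221). Both were named after their values were seen, and with the slide as a block no probe passed this comparison. None of the 11 hormone-processing genes, such as Scg2 and Vgf, and none of the 12 hypothalamic neuropeptide genes passed in it, with medians of 0.072 and 0.31. In irradiated against freeze-dried and in freeze-dried against fresh animals, 0 genes of these 4 lists passed.

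Marker lists of other tissues were read in the same animals, and their part in the results was not tested. The 12 hypothalamic genes were well above background in all animals. In units of the 75th percentile they summed to 38.8 in heated 1, 34.6 in freeze-dried 1 and 36.8 in fresh 3, within the 30.3 to 38.9 of all 16. Sst, at log2 levels of 4.68 to 5.07, made up most of each sum. The mean of the 12 log2 levels, each relative to the median of its gene, was 0.118 in heated 1, -0.151 in freeze-dried 1 and -0.051 in fresh 3. Over all 16 animals that mean lay between -0.215 and 0.349. The 6 brain markers were well above background throughout. Tubb3, the brightest of them, had no value in irradiated 1 and was left out of their sums, which were 41.3 to 47.8. The 5 skin keratins summed to 44.1 in freeze-dried 2 and to 3.21 to 3.71 elsewhere, and the 7 muscle genes to 9.19 in fresh 1 and to 0.853 to 1.21 elsewhere; neither animal had measurable Gh. The 6 hindbrain Hox genes summed to 0.115 and 0.081 in heated 2 and 4, 0.1 in freeze-dried 2 and 0.093 in fresh 2, where 1 of the 6 was measurable, and to at least 0.488 in the other 12. All 5 meningeal genes were measurable in each animal (21.6 to 29.9), and the blood genes summed to 182.4 to 306.9. The 5 choroid plexus genes summed to 44.5 in heated 1 and 34.3 to 41.9 in the other heated animals, 31.2 to 44.5 in irradiated animals, 43.9 in freeze-dried 1 and 29.7 to 37.1 in the other freeze-dried animals, and 37.7 in fresh 3 and 28.5 to 31.4 in the other fresh animals. They were thus highest within each of these 3 groups in the animal with Gh, and as high in irradiated 4 without it. Ttr, at log2 levels of 4.68 to 5.31, made up most of each sum. The mean of the 5 log2 levels, each relative to the median of its gene, was also highest in the 3 animals within their groups. It was 0.293 in heated 1, 0.199 in freeze-dried 1, 0.053 in fresh 3 and 0.279 in irradiated 4. Folr1 alone was higher in freeze-dried 3 (0.87) than in freeze-dried 1 (0.68). The 5 sensory ganglion genes summed to 1.73 in heated 1, 1.38 in freeze-dried 1 and 2.00 in fresh 3, within 0.861 to 2.00 over all animals. The pineal genes (0.36 to 0.58) and the cartilage and bone genes (0.542 to 0.698) stayed within narrow ranges.

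**Figure D5:**
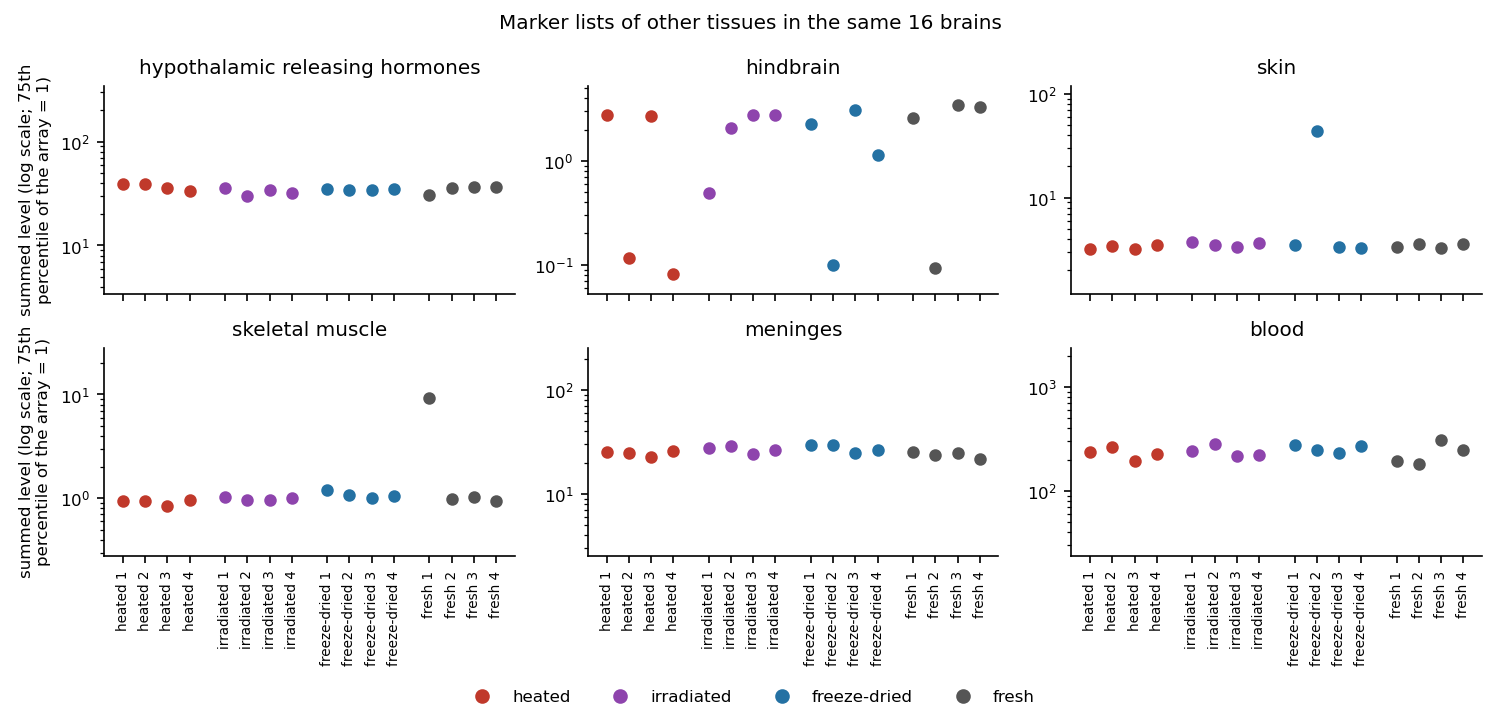
Summed level of 6 marker lists in each animal on a log axis, in units of the 75th percentile of the array, in the order heated, irradiated, freeze-dried, fresh. The hypothalamic, meningeal and blood lists are near level, hindbrain is low in heated 2, heated 4, freeze-dried 2 and fresh 2, skin stands out in freeze-dried 2 and muscle in fresh 1. Most of the hypothalamic sum is Sst.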

How the data were processed

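RNA of 16 brains, 4 per group, was measured on one-colour arrays. Per the submitters' processing notes the authors used Agilent Feature Extraction 11.0.1.1; the deposited scanner files hold fluorescence intensity (processed, spot and background signals) with quality flags per spot. The deposited value table holds log2 signals by a method not given in the sources used here; of the 9 genes it covers Pomc and Lhb, and it was an alternative only. Processed signals were put on the log2 scale minus the 75th percentile of each array (1043 to 1412), with no detection filter; 50 probe values marked as outliers were left out, 0 spots were saturated, and the share of an array's spots marked well above background ranged from 59.9% to 66.1%. The labels number the samples as separate neonates, in some groups with numbers of several parts whose meaning is not stated. If those parts mark litters or parents, animals of a group share them, which was not modelled and would make the p-values too small. The number of arrays limits the precision.

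Probes were named by RefSeq accession (32994 of 56605 matched). Group means of all 16 arrays were fitted in R 4.3.3 by limma 3.58.1, two-sided, on files read with data.table (release 1.17.8). Of 6 pairwise comparisons, 3 are reported. The fit was tested on simulated data with changes planted only in brighter probes of small spread. That test does not cover genes such as Gh, dim in most animals and high in 1 of a group. A difference is given where both groups hold a measurable array. The members and gene lists were chosen with earlier results of these data known. The text names the 9 genes, up to 4 genes per list with the widest range, the 10 genes most like Gh and the 3 most like each other listed gene; genes most like Pou1f1 and Tbx19 are left out because those 2 were below background. Alternatives were normexp background correction (offset 50, on median spot signals, since mean spot signals were not in the files used) with quantile normalization, quantile normalization alone, a filter on dim probes, slide and replicate blocks, trended robust moderation, the value table and leaving out each array. A second probe could not be tried, since none of the 9 genes had one. One gene named by the rule is not reported here.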

Additional observations from a re-analysis of the deposited data

Results flagged for a closer look

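In groups of 4 animals, a value was marked when its gap to the nearest other animal, relative to the range of the group, exceeded the 95% critical value of Dixon's test. Chance marks about 1 in 20 groups, but these genes were chosen because Gh was high in 3 animals or because they follow Gh, so the marks describe that choice and are not independent evidence. Of 36 groups looked at, 15 were marked. In heated 1 these were Gh (2.17), Pomc (2.55), Prl (-4.74), Tshb (-2.05) and Pitx1 (-2.50). In freeze-dried 1 they were Gh (1.81), Pomc (2.28) and Prl (-5.39). In fresh 3 they were Gh (2.34), Pomc (2.36), Prl (-3.99), Tshb (-2.12), Cga (0.09) and Ghrhr (-5.23). The only value in the irradiated group was a low one, Pomc in irradiated 3 (-1.59), which lay 0.15 log2 units under the next animal. For Gh, Prl, Tshb, Cga and Ghrhr the other animals of those groups were mostly below the measurable level, so the sizes of those gaps are not measured.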

How the results depend on the processing

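None of the 16 differences given for 7 genes passed the threshold in any of 23 settings (332 alternative values, lowest adjusted p = 0.184). Pou1f1 and Tbx19, below background, have none. The sign changed in 36 of those values; 4 differences kept their sign throughout. With the slide as a block, heated minus freeze-dried became -1.84 for Gh, -0.92 for Prl, -0.88 for Pomc and -1.29 for Cga, and freeze-dried minus fresh became 0.24 for Gh, 0.11 for Prl and 0.41 for Pomc. For Pomc, heated minus freeze-dried was -0.073 after normexp and quantile normalization and -0.295 in the value table, where freeze-dried minus fresh was 0.107. For Cga, quantile normalization gave -0.009 for heated minus freeze-dried. The cause was not tested.

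Leaving out the only measurable array of a group left no difference to give, which applied to 16 values, among them those of Gh, Prl and Tshb without heated 1, freeze-dried 1 or fresh 3. Otherwise, leaving out 1 array moved heated minus freeze-dried between -0.565 and 1.22 for Gh, -1.33 and 0.124 for Tshb, -1.55 and 1.82 for Cga, -0.249 and 0.646 for Fshb, and -1.01 and 0.934 for Pomc. It moved freeze-dried minus fresh between -1.80 and 0.034 for Gh, -0.049 and 1.35 for Tshb, -1.01 and 1.64 for Cga, -0.962 and 0.909 for Pomc, and -0.002 and 0.137 for Lhb. The sign turned for Pomc without heated 1 in the first comparison and without fresh 3 in the second, among other arrays.

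Over all probes, heated against freeze-dried gave 796 calls (645 higher, 151 lower), 564 with quantile normalization (361 higher, 203 lower), 1024 with normexp and quantile normalization (537 higher, 487 lower), 1370 without dim probes, 1281 with trended robust moderation, 480 with the replicate block, 0 with the slide block (3428 at an unadjusted p under 0.05) and 0 in the value table (1373). Leaving out 1 array gave 31 without freeze-dried 2 to 8549 without heated 4. Freeze-dried against fresh gave 1, but 0 after normexp and quantile normalization, 0 with the replicate block and 0 in the value table, and between 0 without freeze-dried 4 and 3 without freeze-dried 1. Irradiated against freeze-dried gave between 0 and 1, the 1 without irradiated 1. The replicate numbers showed no clear pairing of the animals. Of same-numbered pairs 9 of 24 correlated over 0.1 in their deviations (median 0.032), and of the other pairs 21 of 72 (median -0.027). Of 16 arrays, 3 correlated best with their own number.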
